A study of Mus musculus with 4 samples.

Results

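The genes described here handle iron and divalent metals in mouse myoblasts exposed to palmitate: the ferritin subunits Fth1 and Ftl1, the iron uptake genes Tfrc and Slc11a2, the exporter Slc40a1, the iron regulatory proteins Aco1 and Ireb2, the metallothioneins Mt1 and Mt2, and the zinc exporter Slc30a1. They were taken by the RefSeq transcript that each microarray probe targets, which gave 13 of 39429 probes and 10 of 19751 named genes. The genes were picked with results of these same arrays known, so their palmitate over control ratios are given as a description, without a test.

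C2C12 is a mouse line of muscle satellite cells that proliferate as myoblasts and fuse into myotubes when serum factors are withdrawn. Each of 4 Agilent arrays carried RNA of 1 palmitate culture (0.1 mmol/l palmitate for 48 h in DMEM with 5% foetal bovine serum, cyanine-5) and of 1 control culture (untreated, cyanine-3). According to the treatment protocol the control medium held equal ethanol and fatty acid-free albumin at 5% foetal bovine serum, whereas the label of the control channel names a 10% HS medium, so a difference of serum between the groups cannot be told apart from palmitate. Both groups were taken on day 3 of proliferation. The arrays are named as biological replicates 1 to 4 and compared 4 palmitate with 4 control cultures of 1 line, so errors and p-values cover the spread between cultures of that line. Palmitate RNA carried cyanine-5 on every array, and an effect of the dye cannot be told apart from one of palmitate. All 4 arrays lay on 1 slide and were read in 1 scan.

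Cells take up iron bound to transferrin through the transferrin receptor, carry it out of the endosome through Slc11a2 (DMT1), store the surplus inside the ferritin shell of heavy and light chains, and release it through ferroportin (Slc40a1). The iron regulatory proteins bind hairpins in the mRNAs of these genes: when iron is scarce they block translation of ferritin and protect the transferrin receptor mRNA, so much of this control leaves no mark on ferritin mRNA. Metallothioneins are small cysteine-rich proteins that bind zinc and copper, and together with Slc30a1 they are known targets of the zinc-sensing factor MTF-1, which binds metal response elements in their promoters.

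The promoters of these metal response genes are shown because they carry the element that the 3 genes are known to share. Each line gives the 250 bases before the RefSeq start in GRCm38.p6, with cores of the metal response element (TGCACNC or TGCGCNC, either strand) in capitals.

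Mt1 (chr8:94178839-94179088, + strand): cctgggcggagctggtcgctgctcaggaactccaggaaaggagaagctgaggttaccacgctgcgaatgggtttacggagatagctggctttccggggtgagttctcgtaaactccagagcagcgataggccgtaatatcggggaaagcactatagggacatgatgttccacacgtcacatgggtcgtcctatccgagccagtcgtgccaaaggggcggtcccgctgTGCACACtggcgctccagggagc

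Mt2 (chr8:94172368-94172617, + strand): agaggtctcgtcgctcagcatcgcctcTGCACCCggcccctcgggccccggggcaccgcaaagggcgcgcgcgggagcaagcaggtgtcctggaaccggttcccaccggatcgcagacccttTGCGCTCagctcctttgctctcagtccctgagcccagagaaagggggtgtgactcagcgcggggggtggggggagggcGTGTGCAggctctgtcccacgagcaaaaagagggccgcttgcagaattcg

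Slc30a1 (chr1:191906531-191906780, + strand): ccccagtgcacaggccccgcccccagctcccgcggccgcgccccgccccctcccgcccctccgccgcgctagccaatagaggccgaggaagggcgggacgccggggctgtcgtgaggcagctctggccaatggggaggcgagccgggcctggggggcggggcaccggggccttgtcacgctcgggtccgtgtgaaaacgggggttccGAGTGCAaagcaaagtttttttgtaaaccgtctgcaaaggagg

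In the window of 250 bases before to 50 after the start, Mt2 held 4 cores, Mt1 held 3 and Slc30a1 held 2. The cores of Mt2 spanned positions -223 to -217, -128 to -122, -50 to -44 and 5 to 11, those of Mt1 -23 to -17, 3 to 9 and 21 to 27, and those of Slc30a1 -43 to -37 and 31 to 37, so cores past the start are not in the printed stretch. Positions count from the annotated RefSeq start, and whether transcription begins there in these cells was not tested. Cores outside this window are not counted, for Mt1 as for the others. Over 32851 RefSeq promoters of this length, 7.11% held at least 2 cores, 1.97% at least 3 and 0.517% at least 4. Mt1 and Mt2 are neighbouring genes on chromosome 8. Of the other members, Tfrc had 2 overlapping cores on opposite strands at -53 to -47 and -50 to -44, Aco1 had 1 at 18 to 24, and Fth1, Ftl1 and Ireb2 had none, with a promoter window found for 8 of 10 members. A core of the antioxidant response element (TGACNNNGC, either strand), present in 12.4% of promoters, stood in Mt2 at -79 to -71 and in Slc30a1 at -82 to -74. The loop letters of the iron-responsive element (CAGTGN) occurred in the 50 bases after the annotated start of none of the 8 genes, against 7.08% of all promoters. Only 50 bases after the annotated start were searched, so this cannot show whether the mRNAs hold the element further along. These are matches of letters and not sites of binding.

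Of 39429 probes on each array, 61.9% to 70.7% were well above background in palmitate cultures, against 57.6% to 64.0% in control cultures. Only probes that the scanner software called well above background in the same channel of every array were tested. These were 24169 probes in all and 12 of the 13 member probes. All 10 members kept at least 1 probe, and each of the 12 was above background on 4 of 4 arrays in both channels with no saturated spot. Over all tested probes the log2 ratios of replicates 2 to 4 correlated at 0.67 to 0.76 with each other, while replicate 1 correlated at -0.075 with the mean of the other arrays. Member values are therefore given with and without replicate 1. Signals below are background-corrected, dye-normalized and scaled between arrays in arbitrary units, and each is read against other cultures on the same probe or list of probes, since signals of different probes do not compare transcript levels.

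On this dye-normalized scale, both ferritin genes were higher in all palmitate cultures. Fth1, the heavy chain that oxidises ferrous iron as it enters the shell, had signals of 215286, 239366, 209102 and 222773 in palmitate cultures (replicates 1 to 4), against 155034, 120281, 139865 and 124309 in control cultures. Every palmitate signal lay above every control signal, and replicate 2 had the widest gap. The log2 ratios were 0.47, 0.99, 0.58 and 0.84, with a mean of 0.72 ± 0.24 (SD, n = 4), a 1.65-fold higher level. Without replicate 1 the mean was 0.80 ± 0.21 (n = 3).

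Ftl1, the light chain that helps the iron core form, had signals of 234101, 211541, 220145 and 227630 in palmitate cultures, against 184642, 168937, 155058 and 174199 in control cultures. The groups again did not overlap. Its log2 ratios of 0.34, 0.32, 0.51 and 0.39 gave a mean of 0.39 ± 0.082 (SD, n = 4), 1.31-fold, and 0.41 ± 0.092 without replicate 1. The spread between arrays was narrower for Ftl1 than for Fth1, and replicate 1 did not stand apart for either chain. On this scale 99.4% of the 13712 tested genes, each taken by its brightest probe, had a lower mean log2 ratio than Fth1 and 94.3% a lower one than Ftl1. Whether these probes also bind transcripts of related ferritin gene copies was not tested.

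**Figure D1:**
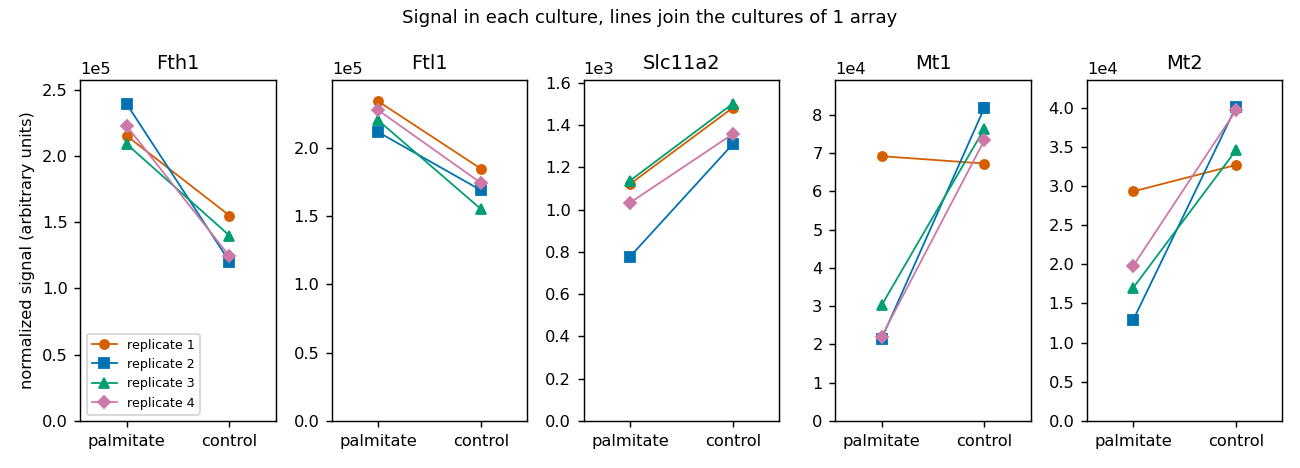
Normalized signal (arbitrary units, axis from 0) of Fth1, Ftl1, the brighter Slc11a2 probe, Mt1 and Mt2 in each palmitate culture (left) and control culture (right), with 1 line for each of the 4 arrays. Ferritin lines fall towards the control side on all arrays, and the lines of Mt1 and Mt2 climb steeply on replicates 2 to 4 and are almost flat on replicate 1.

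The uptake genes did not share 1 pattern. Tfrc encodes the transferrin receptor, and its brightest probe, printed on 10 spots of each array, had signals of 1914, 2361, 1364 and 1539.6 in palmitate cultures, against 1603, 1878, 1573 and 1633 in control cultures. Replicates 1 and 2 were higher with palmitate and replicates 3 and 4 were lower, and the groups overlapped. The log2 ratios were 0.26, 0.33, -0.21 and -0.085, with a mean of 0.074 ± 0.26 (SD, n = 4) and 0.013 ± 0.28 without replicate 1. Over the 10 spots of 1 array the log2 ratio of this probe had an SD of 0.039 on average, so its arrays differed far more than its spots did. The 270 probes with repeated spots had a median spot SD of 0.046.

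A second, dimmer Tfrc probe gave 825, 728, 633 and 733 in palmitate cultures, against 873, 826, 789 and 910.0 in control cultures. It was lower with palmitate on all 4 arrays (log2 ratios of -0.083, -0.18, -0.32 and -0.31, mean -0.22 ± 0.11), although the groups overlapped. The probes of Tfrc thus differed in the sign of their mean. The remaining Tfrc probe was above background on 2 palmitate and 1 control channels only, and was not tested.

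Slc11a2 encodes DMT1, which moves ferrous iron across the endosomal membrane. Its brighter probe had signals of 1121, 777, 1137 and 1033 in palmitate cultures, against 1483, 1311, 1502 and 1358 in control cultures. All palmitate signals lay below all control signals, and the lowest was that of replicate 2. The log2 ratios were -0.40, -0.75, -0.40 and -0.40, with a mean of -0.49 ± 0.18 (SD, n = 4), a 1.40-fold lower level, and -0.52 ± 0.21 without replicate 1. The dimmer Slc11a2 probe did not share this: it gave 381, 208, 200.5 and 236 in palmitate cultures, against 262, 239, 246 and 246 in control cultures. Replicate 1 was higher with palmitate and the other arrays were lower, so that the mean was -0.0052 ± 0.38 with replicate 1 and -0.19 ± 0.12 without it.

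The exporter and the regulatory proteins had means near 0. Slc40a1, the ferroportin gene, gave 197, 265, 256 and 247 in palmitate cultures, against 212, 229, 228 and 233 in control cultures. It was lower with palmitate on replicate 1 and higher on the others, with log2 ratios of -0.11, 0.21, 0.16 and 0.086 and a mean of 0.087 ± 0.14 (0.15 ± 0.061 without replicate 1). The groups overlapped.

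Aco1 encodes iron regulatory protein 1, which doubles as cytosolic aconitase when it carries an iron-sulphur cluster. It had signals of 505, 509, 362 and 329 in palmitate cultures, against 476, 405, 458 and 342 in control cultures, and log2 ratios of 0.085, 0.33, -0.34 and -0.055 (mean 0.0055 ± 0.28, and -0.021 ± 0.33 without replicate 1). Ireb2, iron regulatory protein 2, which is degraded when iron is plentiful, had signals of 179.9, 212, 236 and 224 in palmitate cultures, against 199.5, 192, 225 and 214 in control cultures. Its log2 ratios were -0.15, 0.14, 0.075 and 0.066 (mean 0.034 ± 0.13, and 0.094 ± 0.042 without replicate 1). For both genes the palmitate and control cultures overlapped and the arrays differed in sign.

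The metallothionein genes had the lowest log2 ratios of the members. Mt1 had signals of 69194, 21497, 30235 and 22043 in palmitate cultures, against 67267, 81906, 76419 and 73422 in control cultures. On replicates 2 to 4 the palmitate signal was far below every control signal, and on replicate 1 it lay within the range of the controls, so the groups overlapped. The log2 ratios were 0.041, -1.93, -1.34 and -1.74. Their mean was -1.24 ± 0.89 (SD, n = 4), a 2.36-fold lower level, and -1.67 ± 0.30 or 3.18-fold lower without replicate 1 (n = 3). In RNA of whole cultures, fewer cells that carry a transcript and less transcript per cell cannot be told apart.

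Mt2, its close paralog, had signals of 29324, 12908, 17024 and 19818 in palmitate cultures, against 32704, 40149, 34605 and 39723 in control cultures. Here all palmitate signals lay below all control signals, with replicate 1 closest to its control. The log2 ratios of -0.16, -1.64, -1.02 and -1.003 gave a mean of -0.96 ± 0.61 (SD, n = 4), 1.94-fold lower, and -1.22 ± 0.36 or 2.33-fold lower without replicate 1. For both genes replicate 1 had the highest log2 ratio and replicate 2 the lowest. Cross-binding of these probes between metallothionein transcripts was not tested. Among the 13712 tested genes, 0.255% had a lower mean log2 ratio than Mt1 and 0.503% a lower one than Mt2.

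Probes of ribosomal RNA also had their highest median on replicate 1 and their lowest on replicate 2, over a wider range. The median log2 ratio of 3 such probes was 1.01 on replicate 1, -3.27 on replicate 2, -2.66 on replicate 3 and -1.68 on replicate 4. All were highest on replicate 1 but differed on the rest. The Rn28s1 probe was lowest on replicate 4 (-3.35, against -2.49 on replicate 2). The others were lowest on replicate 2 (-3.54 and -3.27) and had -1.68 and -0.89 on replicate 4. The part of ribosomal RNA or of RNA quality in the metallothionein values was not tested. Kdr, an endothelial receptor gene, was also high on replicate 1 (0.98) and low on the others (-1.33, -1.09 and -0.93). Pecam1, an endothelial adhesion gene above background on 4 of 4 arrays in both channels, had 0.25, -0.49, -0.23 and -0.073. Of the other endothelial genes, Vwf was above background on 2 palmitate and 1 control channels, Emcn on 1 control channel, and Cdh5 and Tek on none. The summed signal of the 2 tested endothelial genes, Kdr and Pecam1, was 1309 to 5871 in palmitate cultures, against 2406 to 3265 in control cultures. Its part was not tested.

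Slc30a1, which exports zinc across the plasma membrane, gave 939, 892, 804 and 901 in palmitate cultures, against 1003, 922, 1004 and 1026 in control cultures. It was lower with palmitate on all 4 arrays, but replicate 1 of the palmitate cultures lay above replicate 2 of the controls, so the groups overlapped. The log2 ratios were -0.096, -0.049, -0.32 and -0.19, with a mean of -0.16 ± 0.12 (SD, n = 4) and -0.19 ± 0.14 without replicate 1. Its range was small beside those of Mt1 and Mt2, with which it is known to share MTF-1 as a regulator. The MTF-1 gene Mtf1 had a mean of -0.033 ± 0.083. The further metallothionein genes Mt3 and Mt4 had -0.047 ± 0.10 and 0.26 ± 0.24. The part of MTF-1 in these values was not tested.

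**Figure D2:**
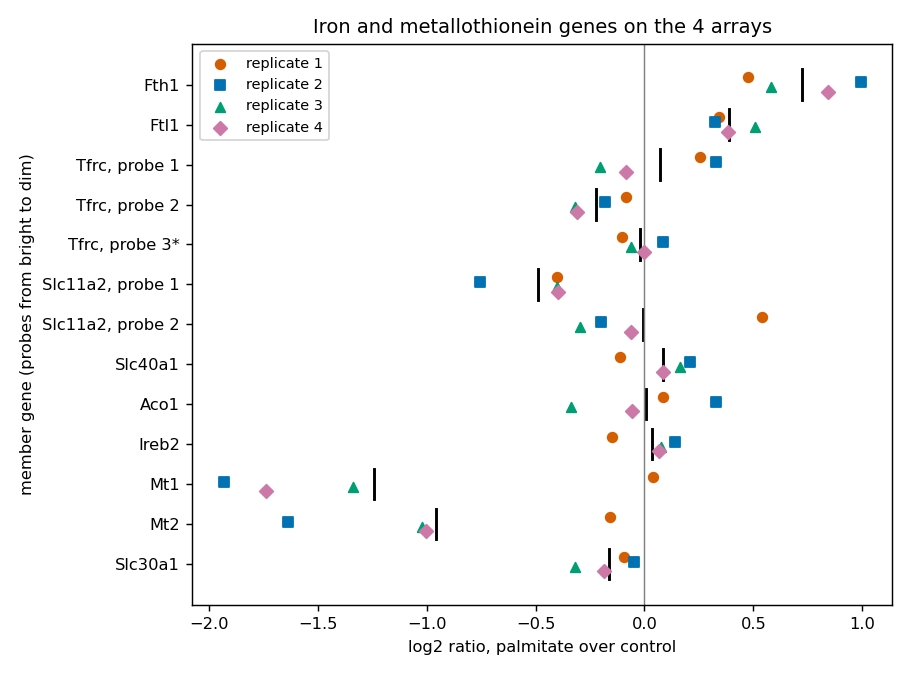
Log2 ratio of palmitate over control on each of the 4 arrays (points by replicate, black bars for the mean) for all 13 probes of the 10 genes, with an asterisk on the Tfrc probe that was not tested. Fth1 and Ftl1 lie right of 0 on every array, Mt1 and Mt2 reach -1.93 and -1.64 on replicate 2, and the other genes lie between -0.75 and 0.54.

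Across the members the brightest probes had a median log2 ratio of 0.020, beside 0.0015 over all 13712 tested genes, and 4 of 10 members (40%) were below 0, beside 49.8% of all genes. In limma's test, no member probe and none of the 24169 tested probes passed an adjusted p of 0.05 with a fold of 1.6. The share called was 0% in either direction. The test of the methods, run on the same probes without the methods' filter on variable probes, called none either. The paper does report genes past these limits after its own preprocessing and filters, most of them lower with palmitate. Its full procedure was not repeated here. The smallest adjusted p of all probes in limma's test was 0.109. At an unadjusted p of 0.05, 2 member probes were higher (Fth1 and Ftl1), where 10.8% of all tested probes were, and 4 were lower (Mt1, Mt2, 1 of Slc11a2 and 1 of Tfrc), where 11.1% were. The log2 ratio was above 0 on 4 of 4 arrays for 2 member probes (15.8% of all) and below 0 for 4 (14.6% of all). Palmitate signals all exceeded control signals for 2 member probes (5.46% of all) and all lay below them for 2 (6.76% of all). These are values of the contrast the genes were chosen on, and nothing is read from the counts.

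Without replicate 1, an adjusted p of 0.05 was passed upwards by 2 member probes (Fth1 and Ftl1; 8.76% of all tested probes) and downwards by 3 (Mt1, Mt2 and the brighter Slc11a2 probe; 9.19% of all). With a fold of 1.6 as well, Fth1 was called higher (2.3% of all) and Mt1 and Mt2 were called lower (3.11% of all). This subset was chosen after the data had been seen, and its calls describe 3 arrays.

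**Figure D3:**
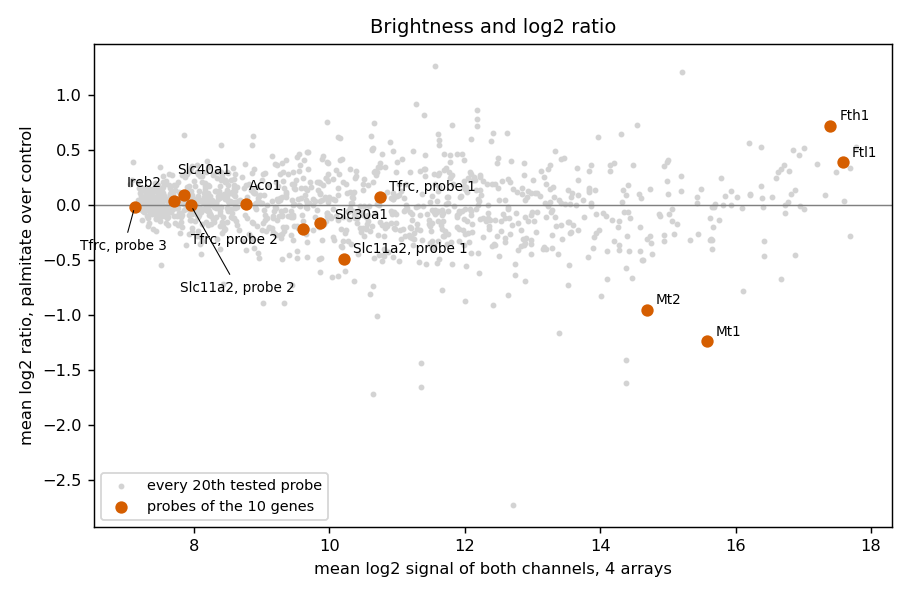
Mean log2 ratio of palmitate over control against mean log2 signal of both channels over 4 arrays, for the 13 probes of the 10 genes (orange) and every 20th tested probe (grey). The ferritin and metallothionein probes lie at the bright end on opposite sides of 0, and the other members lie at dim and middle signals between -0.49 and 0.087.

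The genes whose 4 log2 ratios lay closest to those of 3 members, by Euclidean distance over all tested genes, were as follows. For Fth1 they were Csgalnact2 (distance 0.098), Rpl41 (0.16) and Rpl35 (0.22), for Tfrc they were Eif2s2 (0.075), Klhl13 (0.088) and Ppp2r3c (0.093), and for Mt1 they were Zfp148 (0.37), Rnf6 (0.40) and Atp5md (0.45). The neighbours of Mt1 were the most distant, and Rnf6 shared its profile with log2 ratios of -0.19, -2.10, -1.34 and -2.02. With 4 arrays, such likeness is a description.

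Wider lists of metal genes were counted beside the members, at an unadjusted p of 0.05 since no gene passed the adjusted one. Among all tested genes, 10.8% were higher and 13.4% were lower by that rule. Of 13 tested genes for iron uptake and reduction, 3 were higher and 2 lower, with a median log2 ratio of 0.028. Among those with 1 sign on all arrays were Steap2 (0.38 ± 0.21, SD, n = 4), a metalloreductase, Slc39a8 (0.33 ± 0.26), a carrier of zinc, manganese and iron, and Slc22a17 (-0.38 ± 0.27), a lipocalin-2 receptor. Sfxn1, a mitochondrial carrier, had as high a mean (0.38 ± 0.38) but was below 0 on replicate 1. Of 9 genes for export and systemic regulation, 1 was higher and none was lower (median 0.016). The higher one was Cp, the ferroxidase ceruloplasmin (0.29 ± 0.24), with replicate 4 at -0.032. Flvcr1, a haem exporter by its original description, had a mean of -0.10 ± 0.060.

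Around ferritin itself, 10 genes for storage, iron chaperones and turnover gave 1 higher and 2 lower (median -0.047). Bola2, which works with glutaredoxin in cytosolic iron-sulphur transfer, had -0.65 ± 0.33, and Pcbp2, a chaperone that brings iron to ferritin, had -0.25 ± 0.17. Cul1, a scaffold of the ubiquitin ligase that degrades iron regulatory protein 2, had 0.48 ± 0.23. For haem, 6 of 17 genes were higher and 4 lower (median 0.12). Hmox1 and Hmox2, the haem oxygenases that free iron from haem, had 0.41 ± 0.12 and 0.42 ± 0.16, the haem-binding membrane protein Pgrmc1 had 0.63 ± 0.22, and the synthesis enzyme Uros had -0.43 ± 0.13. These genes were named for having 1 sign on all arrays, and their adjusted p was between 0.118 and 0.194 (limma). Blvra (0.42 ± 0.40), which reduces biliverdin, and Cpox (0.27 ± 0.22), a synthesis enzyme, were also higher at an unadjusted p of 0.05, with replicate 1 below 0.

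The 32 iron-sulphur cluster genes gave 4 higher and 6 lower (median -0.028), with Ciao2b, of the cytosolic targeting complex, at -0.57 ± 0.22 and Iba57, of late mitochondrial assembly, at 0.57 ± 0.45. Of 14 tested genes listed for copper, the second metal of metallothioneins, none was higher and 4 were lower (median -0.018). The list also held Mtf2 (0.15 ± 0.15), which is not a copper-handling gene. The copper chaperone Atox1 had log2 ratios of -0.16, -1.23, -0.85 and -1.15 (mean -0.85 ± 0.49), with replicate 1 closest to 0, as for Mt2. Cox17 (-0.49 ± 0.12), Cox11 (-0.46 ± 0.27) and Ccs (-0.35 ± 0.18), which supply copper to cytochrome oxidase and superoxide dismutase, were below 0 on all arrays. Without replicate 1, 2 of the 14 were lower at an adjusted p of 0.05, where 9.83% of all genes were.

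Of 21 tested zinc transporters and metal response genes, the list nearest to Slc30a1, 3 were higher and none was lower (median 0.12). Slc39a6 had 0.33 ± 0.22 and Slc30a5 had 0.21 ± 0.11, both zinc carriers, and Slc39a7 had -0.21 ± 0.17. The list of oxidant-responsive targets of Nrf2, a factor that also acts on ferritin genes, included Nrf2 itself (Nfe2l2) and its repressor Keap1. It gave 7 higher, with Nfe2l2 among them, and 2 lower, with Keap1 among them, of 18 (median 0.13). Without replicate 1, 8 were higher and 1, Keap1, was lower at an adjusted p of 0.05, where 8.71% and 9.83% of all genes were. The peroxiredoxin Prdx1 had 0.98 ± 0.43, Nqo1 had 0.59 ± 0.34, Gsta4 had 0.58 ± 0.18, and the Nrf2 repressor Keap1 had -0.55 ± 0.33. RNA-binding proteins known to speed decay of some mRNAs, Tfrc among them, gave 2 higher and 2 lower of 6 (median -0.15): Zfp36l2 had 0.42 ± 0.32 and Zfp36l1 had 0.20 ± 0.12, while Rc3h2 had -0.35 ± 0.14 and Rc3h1 had -0.34 ± 0.17. Neither Zc3h12a nor Zfp36 was counted, and their arrays differed in sign. Zc3h12a had -1.36, -1.06, 0.062 and 0.085 (mean -0.57 ± 0.75), and Zfp36 had a mean of 0.048 ± 0.21.

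**Figure D4:**
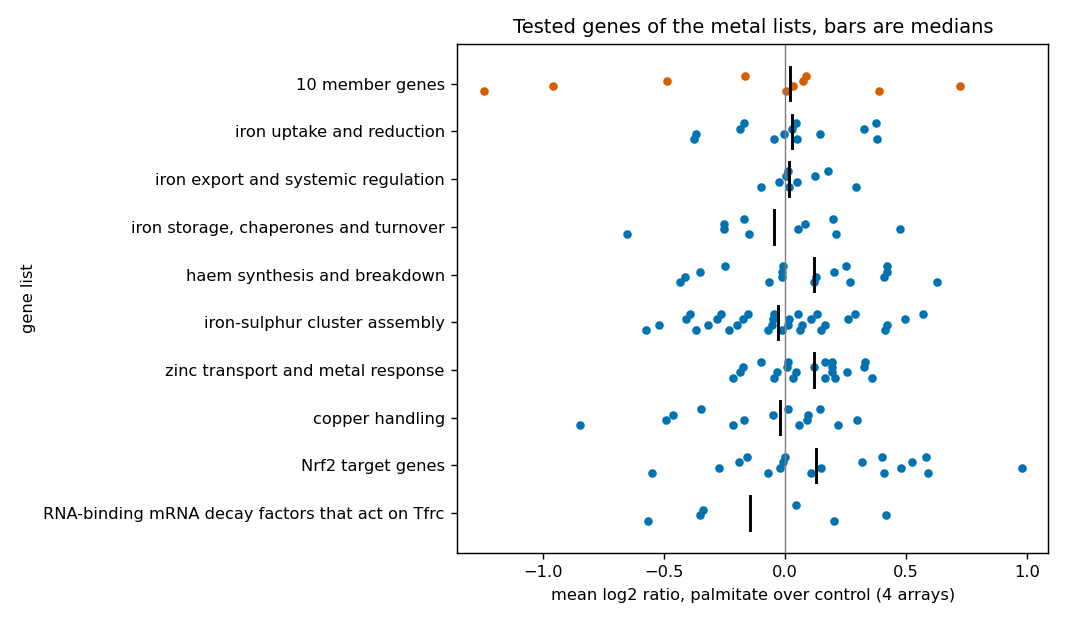
Mean log2 ratio of palmitate over control over 4 arrays for the tested genes of each list (blue points) and for the 10 members by brightest probe (orange points), with black bars at the medians. The list medians lie between -0.15 and 0.13, Mt1 at -1.24 and Mt2 at -0.96 lie lower than every list gene plotted, and Prdx1 at 0.98 lies higher than Fth1 at 0.72.

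Markers of myoblasts were detected, and all 10 myoblast genes, among them Myod1 and Myf5, were tested. Pax7 and Cav3 were above background on 4 palmitate channels but on only 2 control channels. The summed signal was 98732 to 107944 in palmitate cultures and 90449 to 97886 in control cultures, which did not overlap. This was not particular to myoblast markers. The sums of the haem list (61901 to 70775 against 56868 to 61507) and of the storage list (133548 to 145894 against 147947 to 165256) did not overlap either. At an unadjusted p of 0.05, 3 of them were higher (Ncam1 0.37 ± 0.14, Chrna1 0.26 ± 0.13 and Myod1 0.24 ± 0.20) and none was lower. Of 12 genes of differentiated muscle 10 were tested, with a summed signal of 14634 to 19373 in palmitate cultures and 15776 to 18248 in control cultures. Of these 2 were higher, Myh3 (0.32 ± 0.18) and Myog (0.30 ± 0.14), and none was lower. The part of cell state in the member values was not tested. Of 8 adipocyte genes 3 were tested. Fabp4 was above background on 4 of 4 arrays in both channels. Cidec and Adrb3 were above it on 4 palmitate channels each, and on 0 and 1 control channels. Adipoq, Plin1, Lep, Cfd and Retn were above background on no array. Red cell genes bear on iron through haemoglobin: 4 of 7 were tested and 1 was lower, Epor, the erythropoietin receptor (-0.33 ± 0.22, below 0 on all 4 arrays). The globins Hba-a1 (0.11 ± 0.12) and Hba-a2 (-0.15 ± 0.32) were above background on 4 of 4 arrays in both channels, and Hbb-bt on none. Of 7 macrophage and leukocyte genes 4 were tested, with sums of 17130 to 60691 in palmitate cultures and 19023 to 44498 in control cultures.

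The dye scale shifted all probes, and member values are best read against that shift. With no dye normalization the median of all tested probes was 0.99, Fth1 and Ftl1 had 2.01 and 1.69, and Mt1 and Mt2 had -0.024 and 0.22. Slc11a2 and Slc30a1 had 0.61 and 0.93. Relative to that median, Fth1 and Ftl1 were at 1.02 and 0.70, Mt1 and Mt2 at -1.01 and -0.77, and Slc11a2 and Slc30a1 at -0.38 and -0.061. Centring each array on its median instead of loess set the tested probes at a median of 0.18, and gave 1.20 for Fth1, 0.88 for Ftl1, -0.20 for Slc11a2, -0.84 for Mt1 and -0.59 for Mt2. Ftl1 was then above 0 on 3 arrays and below 0 on 1. Slc11a2 and Mt2 were each below 0 on 3 arrays and above 0 on 1. The processed signals of the scanner software gave 0.60 for Fth1, 0.19 for Ftl1, -0.59 for Slc11a2, -1.26 for Mt1 and -0.95 for Mt2. Slc30a1, at -0.16 with loess, was at 0.12 with median centring, which was below the median of 0.18.

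**Figure D5:**
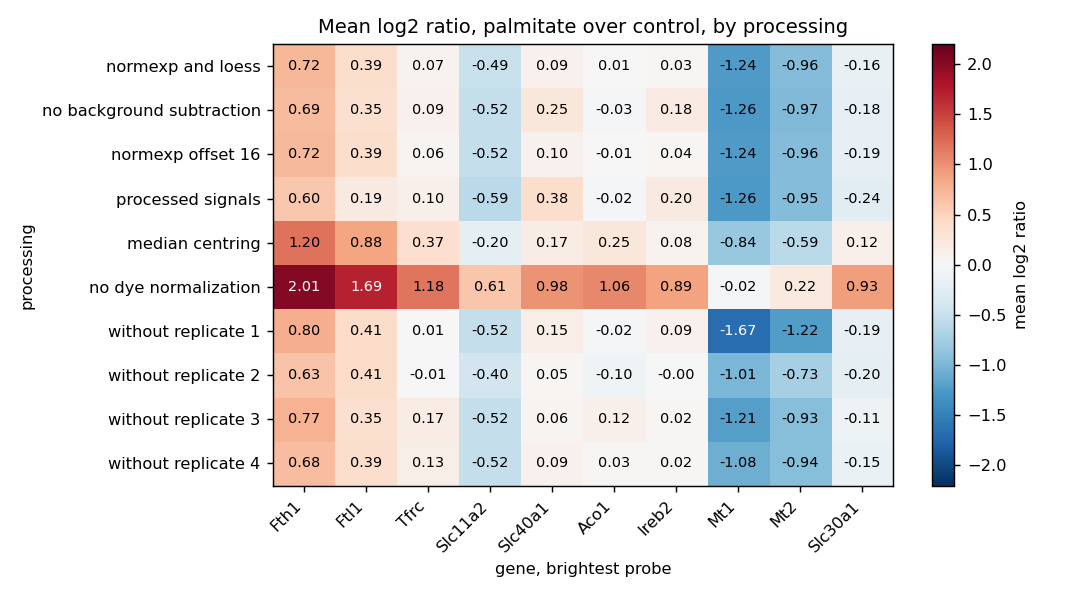
Mean log2 ratio (palmitate over control) by gene, taken from its brightest probe (columns), under 10 ways of processing (rows), with the value in each cell and red above 0 and blue below 0. Fth1 and Ftl1 are above 0 in every row and Mt1 is below 0 in every row, while Mt2, Slc11a2 and Slc30a1 are above 0 without dye normalization, where the median of all probes is 0.99, and Slc30a1 also with median centring.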

How the data were processed

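RNA of 4 palmitate and 4 control cultures was hybridised in pairs to 4 Agilent arrays, and slide images were quantified with Agilent Feature Extraction 10.7.3.1. The authors deposited uncorrected median intensity of each spot and of its background, and a processed intensity from which background and dye bias had been removed. They also deposited, per the file headers, a log10 ratio of these processed values, which served to check the direction. A further table that the authors deposited holds 1 log2 ratio per probe and array (palmitate over control). It matched the processed signals within 3.02e-06 (39030 probes with 1 spot; column medians -0.072, -0.12, -0.10 and -0.16).

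Signals were corrected by normexp (offset 50), normalized by loess and averaged over spots of a probe in limma 3.58.1 (R 4.3.3). Signals of single cultures were then scaled by Aquantile, which leaves ratios as they were. Mean log2 ratios were tested against 0 with Benjamini-Hochberg adjustment over 24169 probes, with the array as the pairing of the cultures, after the procedure was tested on simulated data. Precision is limited by the number of arrays. RefSeq accessions named 26055 probes and left 13374 unnamed, and a gene was represented by its brightest probe. Named list genes were up to 4 for each list with 1 sign on all arrays and the largest mean log2 ratio. Promoter sequences are those of RefSeq, GRCm38.p6. The members and the lists were chosen with earlier results of these data known. Alternatives covered background correction, dye scale, filters, pairing, the methods' t-test, choice of probe and leaving out each array.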

Additional observations from a re-analysis of the deposited data

Results flagged for a closer look

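The brighter Slc11a2 probe had a log2 ratio of -0.75 on replicate 2, far below the -0.40 of replicates 1, 3 and 4, so that the gap to the nearest array took most of the range. This was 1 of 39 sets of 4 values compared in this way for the 13 member probes (log2 ratios, palmitate signals and control signals), and chance sets apart about 1 in 20 of them. The dimmer Slc11a2 probe had -0.20 on that array.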

How the results depend on the processing

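With 4 arrays 0 probes passed both limits (adjusted p of 0.05, 1.6-fold), and this count was 13 with processed signals, 13 with the deposited table, 20372 without dye normalization, 340 after the filter of the methods on variable probes, and 0 to 1308 when 1 array was left out (1308 without replicate 1). Of the 137 tested list genes, 47 passed an unadjusted p of 0.05 (25 higher), against 8 with median centring (8 higher), 124 without dye normalization (124 higher), 15 with the methods' t-test (7 higher) and 28 to 61 when 1 array was left out. Without the replicate block, that is with the channels of an array unpaired, 0 probes and 7 list genes passed. The mean log2 ratio of Fth1 was 1.20 with median centring, 2.01 without dye normalization and 1.02 relative to the median of all probes, the last chosen after seeing the data. That of Ftl1 was 0.88, 1.69 and 0.70 in the same settings, and 0.19 with processed signals and with the deposited table. Without dye normalization Mt1 was at -0.024, Mt2 at 0.22, Slc11a2 at 0.61 and Slc30a1 at 0.93, and Slc30a1 was at 0.12 with median centring. Other changes of sign lay near 0: Tfrc at -0.012 without replicate 2 and -0.075 as the median of its probes, Aco1 at -0.030 without background subtraction, -0.024 with processed signals and the deposited table, -0.0084 with an offset of 16, -0.021 without replicate 1 and -0.10 without replicate 2, Ireb2 at -0.0026 without replicate 2, and Slc40a1 and Ireb2 at -0.0059 and -0.10 relative to the median without dye normalization. When 1 array was left out, Fth1 ranged over 0.63 to 0.80, Ftl1 over 0.35 to 0.41, Mt1 over -1.67 to -1.01, Mt2 over -1.22 to -0.73, Tfrc over -0.012 to 0.17, Aco1 over -0.10 to 0.12 and Ireb2 over -0.0026 to 0.094. Leaving out settings that cannot alter a ratio, 75 member values moved by less than the SD between arrays, 22 moved by more and 15 changed sign. The cause of these changes was not tested. Naming probes by a symbol column was not run, since naming here went through accessions only.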
